A study of Mus musculus with 2 samples.

Results

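Interferons are secreted proteins that cells make when they sense viral or misplaced nucleic acid, or, in the case of interferon gamma, when T cells and NK cells are activated. Type I interferons signal through IFNAR1 and IFNAR2 to a complex that contains STAT2 and IRF9 and binds the interferon-stimulated response element (ISRE), whereas interferon gamma signals through IFNGR1 and IFNGR2 to factors that bind the gamma-activated site (GAS). The genes that respond encode antiviral effectors, guanylate-binding and immunity-related GTPases, nucleic acid sensors, and the factors that sustain or end the signal. In tumors, both myeloid cells and lymphocytes express them.

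A list of 38 interferon response genes was taken by gene symbol from the 17232 genes measured by scRNAseq in tumor-infiltrating immune cells (TIIs), and all 38 were in the table. The TIIs came from B16-OVA tumors, grown from mouse melanoma cells that express ovalbumin, at day 14 after challenge of *Maoa* WT or *Maoa* KO mice 8 to 12 weeks old. *Maoa* KO mice carry *Maoa* tm1Shih, a hypomorphic allele present in every host cell, from a 129S strain backcrossed with C57BL/6J. For each genotype 10 tumors were combined, DAPI-CD45.2+ cells were sorted, 10000 cells were loaded and 1 library was made. There was therefore no replicate and no test between genotypes, and every interval given is a 95% interval that covers counting error only.

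In all, 2392 cells with 28801253 UMIs (unique molecular identifiers, which count captured RNA molecules) were labelled WT and 2630 cells with 23702018 UMIs were labelled KO. The median cell had 9887.5 and 6945.5 UMIs. *Maoa* itself had 7 UMIs in the library labelled WT and 15 in the library labelled KO (log2 ratio 1.33, 95% counting interval −0.00095 to 2.92), too few for the targeted gene to check the labels, so "labelled WT" and "labelled KO" are used. The libraries had 13 cell barcodes in common. Cells were clustered without the interferon genes, and 14 of the 16 clusters were placed by marker genes in 5 classes. These were tumor-associated macrophages and monocytes (TAM/Mono, 972 cells labelled WT and 835 labelled KO), T cells (959 and 936), NK cells (179 and 264), dendritic cells (DCs, 162 and 340) and plasmacytoid DCs (pDCs, 48 and 70). A further cluster of 8 and 24 B cells was too small for ratios, and a cluster led by *Klra7* and *Klra6* (64 and 161 cells) was left unnamed. The 10 neutrophil marker genes summed to 347 and 99.2 CPM over all cells labelled WT and KO, CPM being the UMIs of a gene scaled to the same total of UMIs in every set of cells.

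All members are annotated as protein-coding (GENCODE M21, GRCm38), and several lie close together. *Ifit2*, *Ifit3* and *Ifit1* lie between 34550694 and 34650009 on chromosome 19, *Gbp5*, *Gbp7*, *Gbp3* and *Gbp2* between 142493978 and 142638008 on chromosome 3, and *Rsad2* and *Cmpk2* between 26442746 and 26479837 on chromosome 12. Reads of near-identical relatives (the *Gbp* genes, *Ifit3* and *Ifit3b*, *Oasl1* and *Oasl2*, the relatives of *Ifi204*) may have been split by the counting, so single members of these families are less certain than their sums.

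RefSeq promoter windows (GRCm38.p6, 250 bases before to 50 bases after a transcription start) were found for 29 members. None was found for *Usp18*, *Gbp4*, *Iigp1*, *Zbp1*, *Dhx58*, *Mx1*, *Rtp4*, *Parp14* and *Ifi204*. The ISRE was searched as GAAA, any 2 bases and GAAA, on both strands, so that on the opposite strand it reads TTTC, any 2 bases and TTTC. These letters were in 17 of the 29 members (58.6%) and in 3.99% of the 27025 symbols with a window. The GAS was searched as TTCNNNGAA, which reads alike on both strands, and its letters were in 9 members (31.0%) and in 9.55% of all symbols. Both motifs were found in 5 members and neither in 8, and ISRE and GAS letters overlapped at 2 places. A match describes letters and is not a site of binding. The 160 bases upstream of the start are printed 5′ to 3′ on the strand of the gene, with matched letters in capitals, for 4 members with low ratios in both TAM/Mono cells and DCs (*Isg15*, *Ifit1*, *Ifit3*, *Rsad2*), for 2 GTPase genes of the chromosome 3 group with unlike ratios in TAM/Mono cells (*Gbp2*, *Gbp7*), and for *Irf1*, which has GAS letters alone. Other members with low ratios in both classes lack ISRE letters, such as *Ifit2* and *Isg20*, which have GAS letters alone. *Isg15* (chr4:156200819-156200978, minus strand) has 3 overlapping ISRE matches.
Isg15: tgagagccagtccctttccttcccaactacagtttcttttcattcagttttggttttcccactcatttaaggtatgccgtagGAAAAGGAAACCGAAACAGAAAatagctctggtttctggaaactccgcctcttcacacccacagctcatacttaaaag
*Ifit1* (chr19:34640729-34640888, plus strand) and *Ifit3* (chr19:34583369-34583528, plus strand) have 2 ISRE matches each.
Ifit1: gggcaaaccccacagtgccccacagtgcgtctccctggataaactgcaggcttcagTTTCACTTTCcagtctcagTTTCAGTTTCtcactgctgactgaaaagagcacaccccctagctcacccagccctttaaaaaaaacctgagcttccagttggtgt
Ifit3: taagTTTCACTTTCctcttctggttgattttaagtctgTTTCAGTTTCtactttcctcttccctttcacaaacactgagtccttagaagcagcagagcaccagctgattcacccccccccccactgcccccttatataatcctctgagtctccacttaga
*Rsad2* (chr12:26456453-26456612, minus strand) has 1 ISRE match.
Rsad2: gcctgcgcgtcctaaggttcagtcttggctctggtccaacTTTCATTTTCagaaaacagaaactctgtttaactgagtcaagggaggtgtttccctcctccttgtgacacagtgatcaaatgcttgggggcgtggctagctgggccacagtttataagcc
*Gbp2* (chr3:142620503-142620662, plus strand) has 1 ISRE match, and *Gbp7* (chr3:142530176-142530335, plus strand) has 1 ISRE match and 2 GAS matches.
Gbp2: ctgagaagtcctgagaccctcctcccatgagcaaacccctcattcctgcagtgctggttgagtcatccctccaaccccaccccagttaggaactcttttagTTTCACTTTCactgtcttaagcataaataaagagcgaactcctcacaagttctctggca
Gbp7: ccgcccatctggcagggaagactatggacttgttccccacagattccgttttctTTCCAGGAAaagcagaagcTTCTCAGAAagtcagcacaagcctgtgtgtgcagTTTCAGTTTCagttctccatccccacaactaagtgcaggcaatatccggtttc
*Irf1* (chr11:53769854-53770013, plus strand) has 1 GAS match.
Irf1: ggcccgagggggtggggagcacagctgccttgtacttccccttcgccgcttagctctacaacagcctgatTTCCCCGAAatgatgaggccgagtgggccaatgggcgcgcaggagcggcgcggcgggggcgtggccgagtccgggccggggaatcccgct

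**Figure D1:**
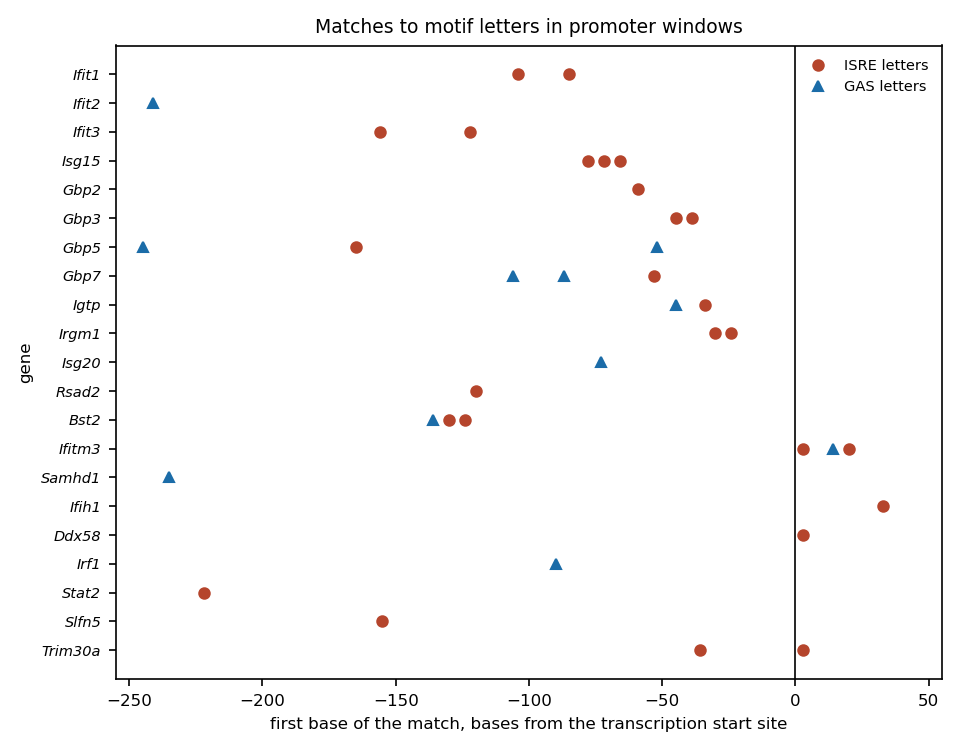
Position of each match to the ISRE and GAS letters in the promoter windows of the members, in bases from the transcription start. Of the members with ISRE letters, 14 have a match upstream of the start.

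The members were highest in myeloid cells. Their UMIs summed to 9272 and 7790.2 CPM in TAM/Mono cells labelled WT and KO, to 7577 and 5029 CPM in DCs and to 5969 and 5413 CPM in pDCs. NK cells had 1639 and 1406 CPM and T cells 1587 and 1567 CPM. By this sum the classes ranked TAM/Mono, DC, pDC, NK cell and T cell in the library labelled WT, and TAM/Mono, pDC, DC, T cell and NK cell in the library labelled KO. Most of the sum in pDCs came from *Bst2* alone. Without the 3 members with the most UMIs (*Ifitm3*, *Bst2* and *Isg15*), DCs ranked above pDCs in the library labelled KO too. Levels of different genes are compared here as 3′ UMIs, which do not scale with transcript length.

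A few members carried most of these UMIs. *Ifitm3*, which encodes a membrane protein that restricts virus entry, held 37.6% of all member UMIs and was at 3664 and 3745 CPM in TAM/Mono cells but at 135 and 107 CPM in T cells. *Bst2*, the tetherin gene, held 6.97%. It was the member most tied to 1 class in both libraries, at 3829 and 3485 CPM in pDCs, 8.10-fold and 8.24-fold over the next class. *Isg15*, the gene of a ubiquitin-like modifier, held 6.89%, *Samhd1*, the gene of a hydrolase of deoxynucleotides, 5.11%, and *Irf7*, the factor that amplifies type I interferon production, 3.74%. TAM/Mono cells had the highest level of 17 members in both libraries, pDCs of 4 and DCs of 2, and for the other members the highest class differed between the libraries. The counting interval of the highest class lay apart from that of the next class in both libraries for 9 of these 17 members, 2 of the 4 and 0 of the 2. In the library labelled WT, *Irf7* in TAM/Mono cells and pDCs and *Samhd1* in DCs and TAM/Mono cells had overlapping counting intervals, so these neighbours in the order were not told apart.

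**Figure D2:**
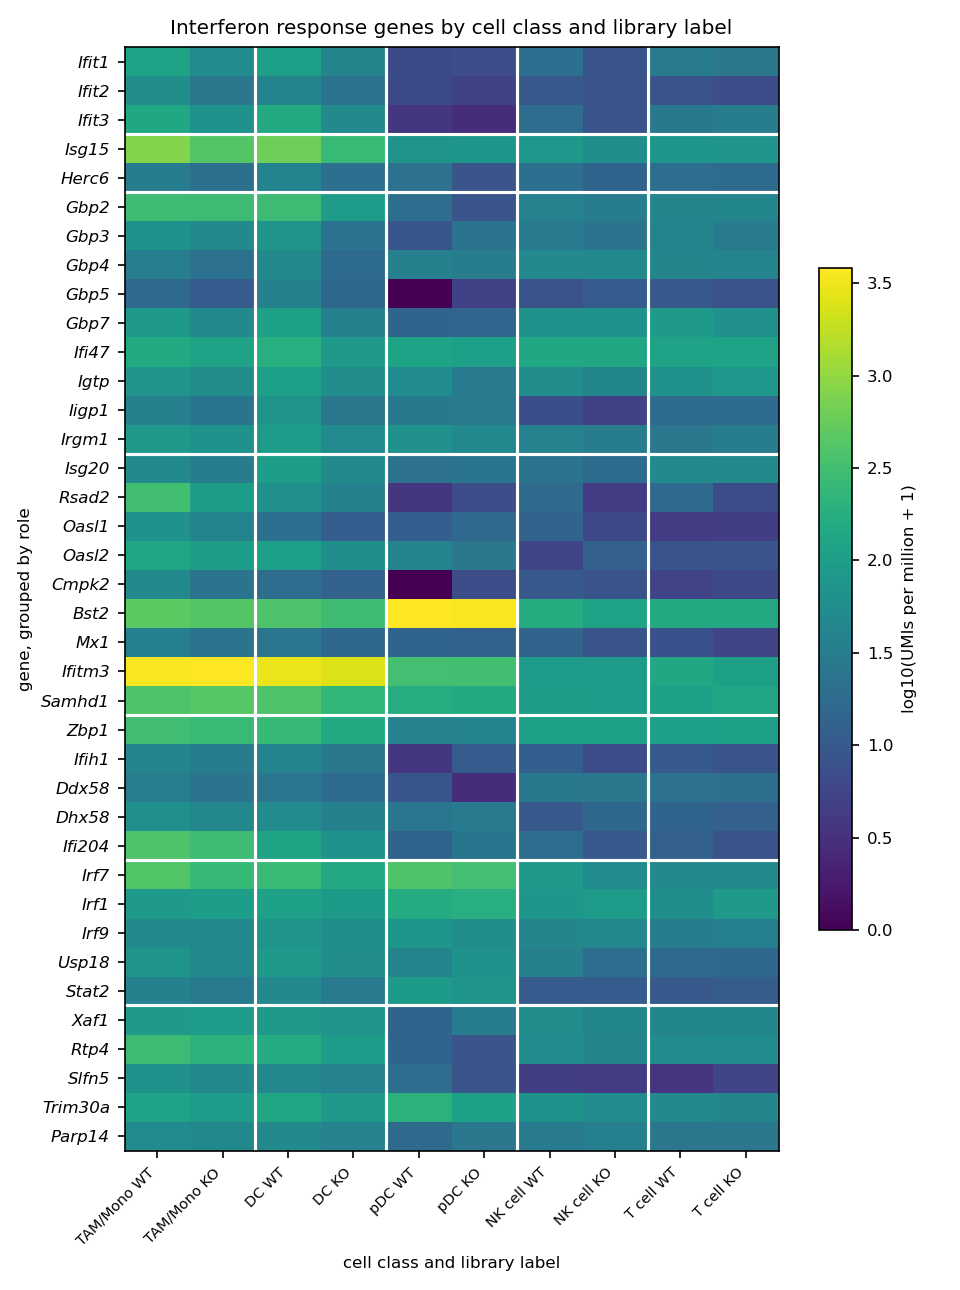
Level of each member in CPM (log scale) in the 5 classes of both libraries, with genes grouped by role. *Ifitm3* is highest in TAM/Mono cells and DCs, and *Bst2* in pDCs.

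The study asked how *Maoa* bears on tumor-associated macrophages, and the first comparison is within that class. In TAM/Mono cells, 14 of 38 members were at least 1.5-fold lower in the library labelled KO and 0 were higher by that fold, where 5.43% of all genes with at least 50 UMIs were lower and 5.67% higher. The median log2 ratio, library labelled KO over library labelled WT, was −0.48 for the members and 0.062 for all genes. Paired levels are given for the label WT first and KO second, followed in parentheses by the log2 ratio and its interval. The members past the fold were the IFIT genes, the ISG15 system, 4 antiviral effectors, 3 GTPases and 2 regulators. Of the 14, 5 came within the fold under at least 1 alternative processing. With both libraries set to 1 mix of clusters, *Isg20* was at −0.56, *Irf7* at −0.53, *Gbp4* at −0.54 and *Herc6* at −0.45, and in thinned cells *Gbp5* was at −0.37.

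The 3 IFIT genes, whose products bind viral RNA, had the lowest summed ratio of the role groups (308 and 144 CPM labelled WT and KO, log2 ratio −1.10, −1.19 to −1.01). *Ifit1* had 115 and 52.4 CPM (−1.13, −1.29 to −0.98), *Ifit2* 57.5 and 25.3 CPM (−1.18, −1.41 to −0.97) and *Ifit3* 135 and 66.0 CPM (−1.03, −1.17 to −0.90). The intervals of the 3 ratios overlapped one another.

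Of the ISG15 system, *Isg15* had 825 and 426 CPM in TAM/Mono cells (−0.96, −1.01 to −0.90), and *Herc6*, the mouse ligase that attaches ISG15 to proteins, had 30.6 and 20.1 CPM (−0.60, −0.87 to −0.35). At least 1 *Isg15* UMI was seen in 80.9% (78.2 to 83.3%) of cells labelled WT and 67.1% (63.8 to 70.2%) of cells labelled KO. When every cell was thinned to 5700 UMIs (leaving out 73 and 99 cells with fewer), these shares became 73.6% (70.6 to 76.5%) and 57.6% (53.9 to 61.2%). In NK cells, at median depths of 4821 and 3960 UMIs against 10365 and 8713 in TAM/Mono cells, the shares were 24.6% and 15.5%, and 17.9% and 12.2% after thinning to 3200 UMIs. These are shares of cells with a UMI, and RNA from outside a cell can add such UMIs. No class here can be taken to lack *Isg15*, so its background share is not known, and no difference in the share of cells that express it is read from these values. *S100a8* or *S100a9* was seen in 48.6% and 1.14% of NK cells and 58.3% and 1.43% of pDCs labelled WT and KO. The part of cell-free RNA in the *Isg15* shares was not tested.

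Among the other antiviral effectors, *Rsad2* (viperin, which makes a chain-terminating nucleotide) had the lowest ratio of all members in TAM/Mono cells, at 313 and 100.1 CPM (−1.65, −1.75 to −1.54). Its neighbour *Cmpk2*, which encodes a mitochondrial nucleotide kinase, had 48.5 and 23.2 CPM (−1.06, −1.30 to −0.84). *Oasl1*, of the oligoadenylate synthetase-like family, had 66.2 and 40.7 CPM (−0.70, −0.88 to −0.52), and *Isg20*, an exonuclease gene, 51.0 and 32.0 CPM (−0.67, −0.88 to −0.47). The most abundant effectors differed little. *Ifitm3* had 3664 and 3745 CPM (0.031, 0.011 to 0.052), *Samhd1* 391 and 430.4 CPM (0.14, 0.076 to 0.20) and *Bst2* 473 and 423 CPM (−0.16, −0.22 to −0.10). Since these carry most UMIs of the group, its sum had a log2 ratio of −0.072 (−0.090 to −0.054).

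The interferon-inducible GTPases, which act on vacuoles that hold microbes, were uneven in TAM/Mono cells. *Gbp7* had 84.8 and 49.5 CPM (−0.78, −0.94 to −0.61), *Gbp4* 32.8 and 20.4 CPM (−0.68) and *Gbp5* 16.0 and 9.87 CPM (−0.69). *Gbp2*, the most abundant of the 9, had 297 and 283 CPM (−0.066, −0.14 to 0.0073), an interval that holds 0. The other 5 had log2 ratios between −0.54 (*Iigp1*) and −0.32 (*Igtp*).

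Of the regulators, *Irf7* had 403 and 252 CPM (−0.68, −0.75 to −0.60) and *Usp18*, a protease that removes ISG15 and restrains IFNAR signaling, 71.3 and 45.7 CPM (−0.64, −0.81 to −0.47). *Irf1*, a transcription factor gene that interferon gamma induces, had 87.0 and 98.4 CPM and the highest ratio of the members (0.18, 0.047 to 0.31). *Stat2* was at −0.38 and *Irf9* at −0.096 (−0.28 to 0.087). The 5 nucleic acid sensors lay between −0.53 (*Ddx58*, which encodes RIG-I) and −0.26 (*Zbp1*), all within the fold. Of the remaining members, *Rtp4*, *Slfn5*, *Trim30a* and *Parp14* lay between −0.49 and −0.15, and *Xaf1*, of a pro-apoptotic factor, had 85.1 and 93.5 CPM (0.14, 0.0030 to 0.27).

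Summed over all members, the log2 ratio in TAM/Mono cells was −0.25 (−0.26 to −0.24), and it was −0.43 without the 3 members with the most UMIs. In these cells the neutrophil list stood at 550.1 and 192 CPM, with UMIs of 10 and 8 of its 10 genes. *S100a8* (285 and 82.8 CPM) and *S100a9* (191 and 42.6 CPM) made up most of it, while *Csf3r*, the receptor gene for granulocyte colony-stimulating factor, had 30.6 and 39.8 CPM (0.38, 0.16 to 0.59). *S100a8* or *S100a9* was seen in 74.2% and 11.4% of TAM/Mono cells, and without those cells the summed ratio was −0.42. The T cell list stood at 279 and 177 CPM (11 of 11 genes in both) and the melanoma list at 48.0 and 29.5 CPM (9 and 8 of 9 genes). The fibroblast or endothelium list stood at 23.0 and 13.1 CPM (4 and 5 of 6 genes, *Col1a2* at 0 in both libraries). Without 146 and 67 cells that carried both T cell receptor complex and myeloid UMIs, the ratio was −0.26. The part of the melanoma and of the fibroblast or endothelium RNA in the result was not tested.

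**Figure D3:**
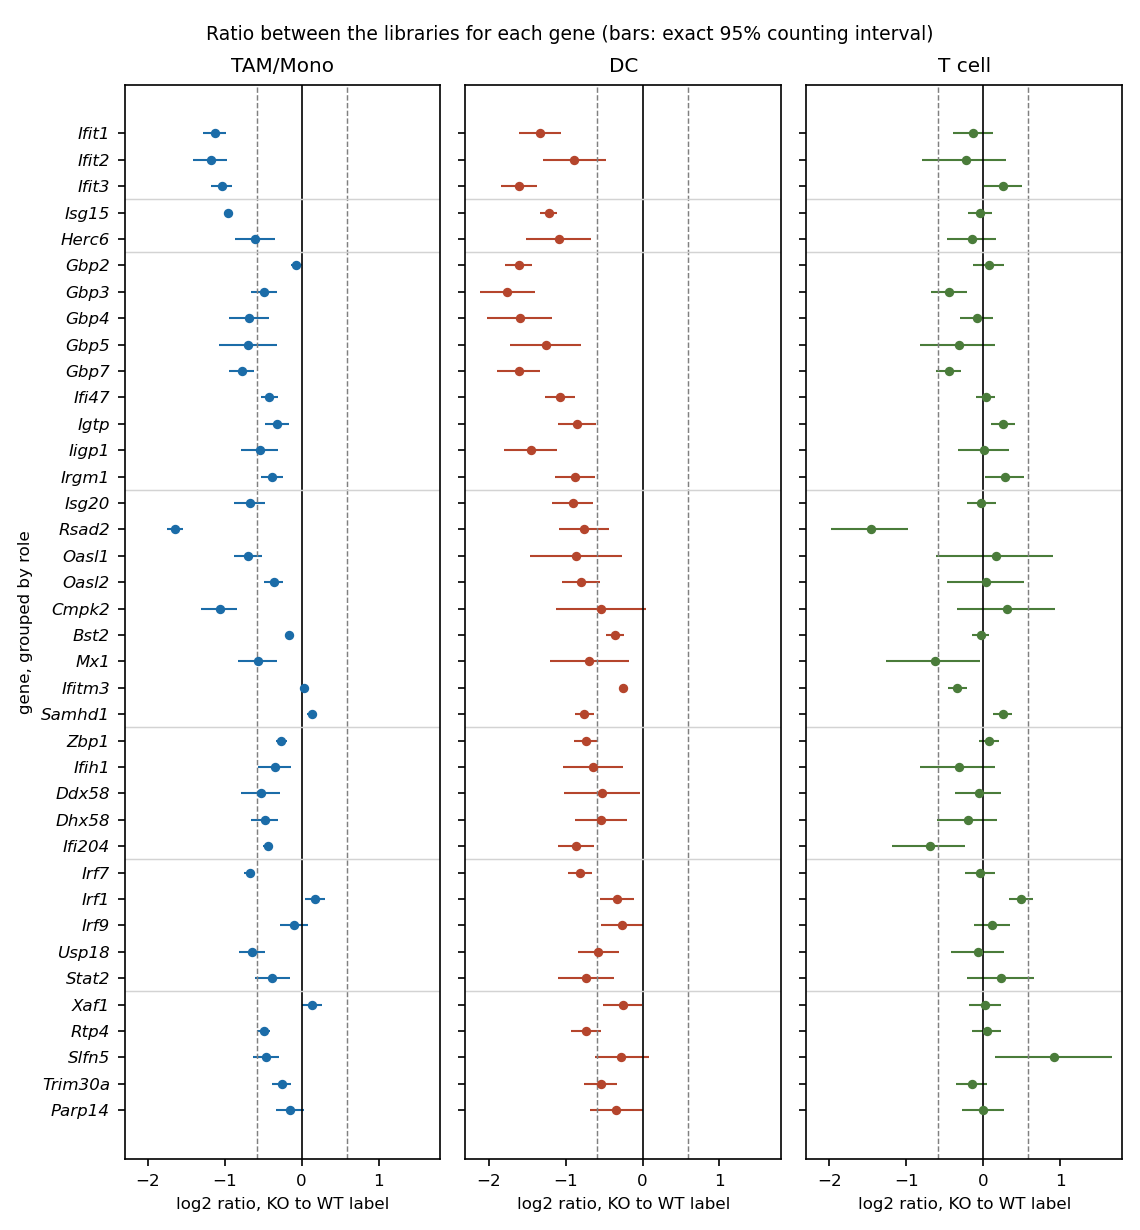
Log2 ratio (KO label over WT label) for each member in the classes shown, with exact 95% counting intervals and lines at 1.5-fold. In DCs all 38 members lie below 0, and in T cells they lie on both sides of 0.

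DCs showed the widest difference. All 38 members had a ratio below 0 (all genes 61.6%), and 26 were at least 1.5-fold lower and 0 higher in the library labelled KO, where 8.55% of all genes were lower and 3.69% higher. The median log2 ratio was −0.78 for the members and −0.088 for all genes. Past the fold in both DCs and TAM/Mono cells were 12 members, namely *Isg15*, *Herc6*, *Isg20*, *Ifit1*, *Ifit2*, *Ifit3*, *Irf7*, *Rsad2*, *Oasl1*, *Gbp4*, *Gbp5* and *Gbp7*. Of these 12, 6 came within the fold in one of the classes under an alternative, namely the 5 named for TAM/Mono cells and *Rsad2*, which was at −0.50 in thinned DCs. A further 14 were past it in DCs and not in TAM/Mono cells. In TAM/Mono cells and not in DCs 2 were past it, *Cmpk2* and *Usp18*. In DCs they had log2 ratios of −0.54 (interval −1.12 to 0.050) and −0.58 (interval −0.84 to −0.31). Both were past the fold in DCs when doublet-like cells were left out, so these groups depend on the processing. The share of all genes past the fold in both classes or in 1 alone is not given, so the overlap has no background.

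The GTPases were lower as a whole in DCs. All 9 were past the fold, and their sum was at 1012 and 407 CPM (−1.31, −1.40 to −1.23), against −0.33 (−0.37 to −0.28) for the same sum in TAM/Mono cells. *Gbp3* had the lowest ratio in this class, at 73.9 and 21.9 CPM (−1.75, −2.12 to −1.40). *Gbp2* had 286 and 93.7 CPM (−1.61, −1.78 to −1.44), so that its interval lay apart from the one in TAM/Mono cells. *Gbp7* had 112 and 36.6 CPM (−1.61), *Gbp4* 50.9 and 16.9 CPM (−1.59) and *Gbp5* 36.3 and 15.2 CPM (−1.26). The immunity-related GTPases followed, with log2 ratios of −1.45 for *Iigp1*, −1.07 for *Ifi47*, −0.87 for *Irgm1* and −0.85 for *Igtp*. Without DCs that had *S100a8* or *S100a9*, *Igtp* was at −0.47, within the fold.

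The IFIT genes summed to 299 and 114 CPM in DCs (−1.39, −1.55 to −1.23). *Ifit3* had 154 and 50.6 CPM (−1.60, −1.84 to −1.37), *Ifit1* 105 and 41.4 CPM (−1.33) and *Ifit2* 40.8 and 22.1 CPM (−0.89). *Isg15* had 610.1 and 262 CPM (−1.22, −1.33 to −1.11) and *Herc6* 40.8 and 19.2 CPM (−1.09). The share of DCs with an *Isg15* UMI was 85.2% (78.8 to 90.3%) and 60.6% (55.2 to 65.8%), and after thinning to 8400 UMIs, which left out 10 and 40 cells, 76.3% (68.7 to 82.8%) and 53.0% (47.2 to 58.8%). As in TAM/Mono cells, the background share is not known, and with 1 library for each label the intervals cover counting error only.

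Of the other effectors in DCs, *Isg20* had 96.5 and 51.4 CPM (−0.91), *Oasl1* 19.4 and 10.6 CPM (−0.87) and *Rsad2* 61.0 and 36.0 CPM (−0.76, −1.08 to −0.43). *Samhd1*, slightly above 0 in TAM/Mono cells, had 399 and 236 CPM (−0.76, −0.88 to −0.63). *Mx1*, of a dynamin-like antiviral GTPase, was at −0.69, and *Ifi204*, of a DNA sensor, at 124 and 68.1 CPM (−0.86). *Irf7* had 256 and 147 CPM (−0.81) and *Stat2* 48.0 and 28.9 CPM (−0.73, −1.10 to −0.37). *Ifih1*, which encodes the RNA sensor MDA5, was at −0.65, and at −0.56 with median-of-ratios scaling, within the fold. The smallest differences were those of *Ifitm3* (2981 and 2499.8 CPM, −0.25, −0.30 to −0.21), *Xaf1* (−0.26, −0.51 to −0.0013), *Irf9* (−0.27, −0.54 to 0.0089), *Slfn5* (−0.27, −0.62 to 0.082) and *Irf1* (−0.33, −0.55 to −0.11).

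Summed over all members, the log2 ratio in DCs was −0.59 (−0.62 to −0.56), and −0.87 without the 3 members with the most UMIs. The neutrophil list stood at 113 and 9.79 CPM in DCs, with UMIs of 7 of 10 genes in both libraries and *Ly6g*, *Camp* and *Ngp* at 0. Without the DCs that had *S100a8* or *S100a9* (77.8% and 5.29%), the ratio was −0.93. The T cell list stood at 1005 and 709.7 CPM (11 of 11 genes in both), and without 49 and 77 doublet-like cells the ratio was −0.67. The TAM list stood at 648 and 550.3 CPM (−0.24, −0.33 to −0.15, 15 of 16 genes in both, *Mertk* at 0 in both libraries). The fibroblast or endothelium list stood at 34.7 and 19.2 CPM (2 and 4 of 6 genes, *Col1a2* and *Sparc* at 0 in both libraries). The part of the TAM and of the fibroblast or endothelium RNA in the result was not tested.

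**Figure D4:**
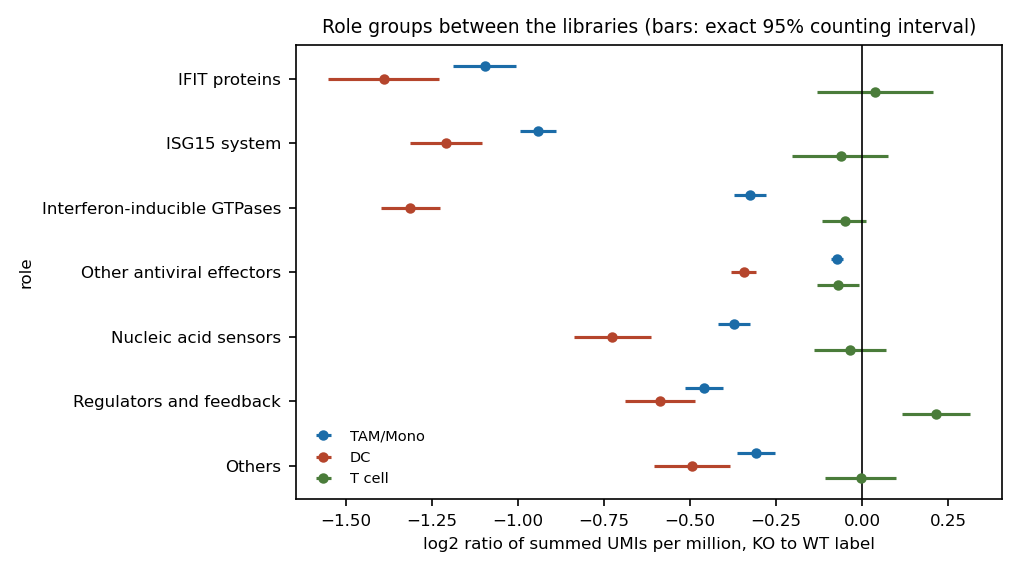
Log2 ratio of the summed members of each role group by class, with exact 95% counting intervals. The GTPases stand at −1.31 in DCs and −0.33 in TAM/Mono cells, whereas the IFIT genes stand below −1 in both.

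T cells differed little as a class. Of 38 members, 3 were at least 1.5-fold lower and 1 higher in the library labelled KO, where 7.21% of all genes were lower and 6.06% higher, and the median log2 ratio was −0.031 for the members and −0.056 for all genes. *Rsad2* was lowest, at 16.0 and 5.78 CPM (−1.46, −1.99 to −0.98), followed by *Ifi204* (11.7 and 7.15 CPM, −0.70, −1.19 to −0.24) and *Mx1* (7.07 and 4.54 CPM, −0.63, −1.26 to −0.048). *Gbp7* (86.1 and 63.0 CPM, −0.45, −0.61 to −0.29) and *Gbp3* (−0.44) came next. At the other end *Slfn5*, a Schlafen family gene, rested on 30 and 33 UMIs (2.41 and 4.54 CPM, 0.91, 0.15 to 1.68). *Irf1* had 60.0 and 84.3 CPM (0.49, 0.33 to 0.65), and *Cmpk2* (0.30), *Irgm1* (0.28) and *Ifit3* (0.26) followed. Of the 4 members past the fold, *Rsad2* stayed past it under every alternative run. *Mx1* came as near as −0.38, *Ifi204* as near as −0.35 and *Slfn5* as near as 0.082.

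Within T cells the clusters differed more than the class. The median member ratio was −0.23 in the cluster led by *Cxcr6* and *Cd8a* (5 of 33 members lower by 1.5-fold, background 6.75%), −0.36 in the cluster led by *Dapl1* and *Lef1* (4 of 26, background 3.91%), −0.24 in the cluster led by *Foxp3* and *Cd4* (4 of 26 and 1 higher, background 5.93% and 4.78%) and −0.45 in the cycling cluster (12 of 27, background 6.3%). All 4 values lay below that of the whole class. The clusters also differed in level and in their share of the class. The cycling cluster had the lowest level (1099 and 799.9 CPM) and gave 241 and 89 T cells, whereas the *Dapl1* cluster (2015 and 1753 CPM) gave 173 and 428. With both libraries set to 1 mix of clusters, the summed ratio in T cells was −0.29, against −0.018 (−0.051 to 0.015) as pooled, and *Slfn5* was at 0.25. *Irf1*, at 0.49 in the class, was at 0.32, 0.20, −0.033 and 0.028 in these clusters, in the order above.

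Beside the T cell values, the neutrophil list stood at 229.8 and 44.4 CPM (9 and 6 of 10 genes), the melanoma list at 109.8 and 177 CPM (9 of 9 genes in both), the erythrocyte list at 1359 and 2484 CPM (4 of 4 in both), the TAM list at 283 and 261 CPM (16 and 15 of 16) and the fibroblast or endothelium list at 13.4 and 20.2 CPM (6 and 3 of 6). Without the T cells that had *S100a8* or *S100a9* (65.7% and 4.06%), the summed ratio was −0.26. The part of the melanoma, erythrocyte, TAM and fibroblast or endothelium RNA in these values was not tested.

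NK cells and pDCs gave fewer members with enough UMIs. In NK cells 2 of 21 were at least 1.5-fold lower and 0 higher (background 5.55% lower and 6.14% higher), at a median log2 ratio of −0.21 against 0.014 for all genes. *Usp18* had 35.4 and 19.0 CPM (−0.89, −1.71 to −0.12) and *Irf7* 81.7 and 52.1 CPM (−0.65, −1.14 to −0.17), and *Bst2* (−0.52), *Isg15* (−0.42) and *Xaf1* (−0.36) came next. At the upper end were *Parp14* (0.25), *Irf1* (0.23), *Irf9* (0.12), *Gbp7* (0.068) and *Gbp4* (0.065), each with an interval that holds 0. The neutrophil list stood at 117 and 8.26 CPM in NK cells. Without the NK cells that had *S100a8* or *S100a9*, *Usp18* was at −0.48 and *Irf7* at −0.40, both within the fold, *Usp18* with fewer UMIs than the minimum.

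In pDCs, the specialised producers of type I interferon, 1 of 10 members was lower and 0 higher (background 5.91% and 4.97%), at a median of −0.18. *Trim30a*, whose product dampens Toll-like receptor signaling, had 197 and 111 CPM (−0.82, −1.35 to −0.30). *Irf9* (−0.40), *Stat2* (−0.32), *Irf7* (396 and 325 CPM, −0.29, −0.62 to 0.045) and *Ifi47* (−0.21) were next lowest, and *Irf1* (159 and 178 CPM, 0.16) and *Isg15* (0.13) were above 0, all 6 with intervals that hold 0. *Bst2* was at −0.14 (−0.24 to −0.034). The neutrophil list stood at 162 and 3.96 CPM in pDCs.

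By cluster, the median member ratio lay below that of all genes in 14 of 14 named clusters. Among DCs, the cluster led by *Ccl22* and *Fscn1* (29 and 46 cells) stood lowest, with 16 of 20 members lower by 1.5-fold (background 10.2%) and a median of −1.04. There *Isg15* had 1317 and 331 CPM (−1.99, −2.24 to −1.74) and *Ifit3* 199.9 and 27.2 CPM (−2.84, −3.78 to −2.07). The cluster led by *Cd209a*, which held most DCs (102 and 248), had 30 of 38 lower (background 8.96%) at a median of −0.81. The cycling DC cluster (31 and 46 cells) had 9 of 22 lower and 1 higher (background 9.48% and 7.63%) at a median of −0.52.

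The mix of TAM/Mono clusters differed between the libraries. The cluster led by *Cxcl3* (347 and 142 cells labelled WT and KO) had 18 of 37 members lower (median −0.58, background 10.9%) and the cluster led by *Cxcl10* and *Lpl* (296 and 244 cells) 15 of 38 (median −0.42, background 7.1%). The cluster led by *Ccl8* and *C1qa* (110 and 117 cells) had 8 of 37 (median −0.30, background 4.67%), and the monocyte clusters led by *Hp* and *Chil3* (109 and 189 cells) and by *Ace* and *Treml4* (110 and 143 cells) had 6 of 32 (median −0.27, background 7.48%) and 3 of 31 with 2 higher (median −0.099, background 7.3% and 5.39%). *Rsad2* was not evenly lower among them. It had 370.4 and 68.7 CPM in the *Cxcl10* cluster (−2.43, −2.65 to −2.22) and 131 and 133 CPM in the *Ccl8* cluster (0.019, −0.21 to 0.24). *Gbp2* had 481 and 559 CPM in the *Cxcl10* cluster (0.22, 0.12 to 0.31), where *Isg15* was at −0.81 (−0.89 to −0.73), and 321 and 90.8 CPM in the *Cd209a* DC cluster (−1.82, −2.03 to −1.62).

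**Figure D5:**
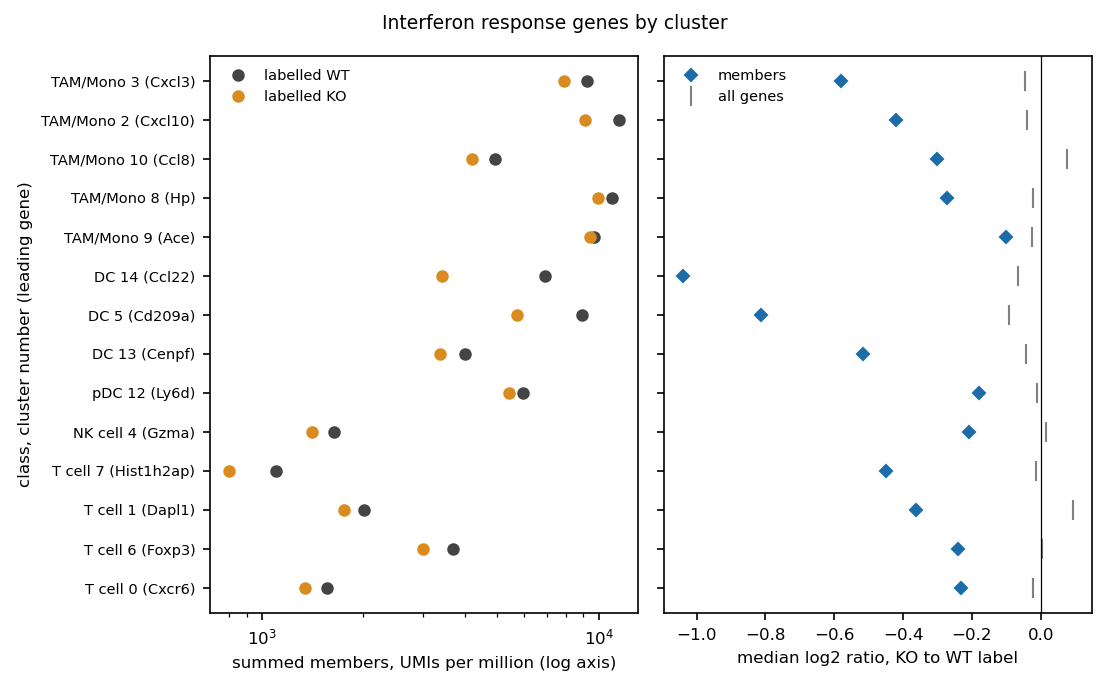
Members in the 14 named clusters of both libraries, with their summed level in CPM and their median log2 ratio beside that of all genes. In 14 of 14 clusters the median of the members lies below that of all genes.

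Single cells varied within each class. In TAM/Mono cells labelled WT, member UMIs per 10000 UMIs of a cell had a median of 81.5, with the 10th and 90th percentiles at 31.2 and 188. In those labelled KO these were 73.8, 26.1 and 156. In DCs the medians were 66.0 and 42.5, and in T cells 13.2 and 13.2. In pDCs the medians were 59.2 and 51.8. Between the same percentiles pDCs labelled WT ran from 41.7 to 77.6 and those labelled KO from 35.3 to 72.5. UMIs of some members lay in few cells. In thinned TAM/Mono cells labelled WT and KO, the 10% of cells with the most *Rsad2* UMIs held 78.8% and 86.8% of them. The same share was 80.9% and 90.6% for *Ifit1*, 80.8% and 87.3% for *Ifit3* and 52.5% and 59.5% for *Isg15*. It was 71.8% and 81.1% for *Gbp2*, which was within the fold, and 22.6% and 21.2% for *Ifitm3*. The *Rsad2*, *Ifit1* and *Ifit3* ratios in this class rested mostly on a minority of cells.

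Members also differed in how they varied together from cell to cell. Across thinned TAM/Mono cells (899 labelled WT and 736 labelled KO, the cells of a label sharing 1 library), log values of *Ifit1* and *Rsad2* had Pearson correlations of 0.65 and 0.54, those of *Ifit1* and *Ifit3* 0.69 and 0.52 and those of *Gbp2* and *Gbp7* 0.45 and 0.36. *Rsad2* and *Gbp2* had 0.15 and 0.054, the lowest of the pairs computed and too weak in such sparse counts to be read as a relation. *Isg15* had 0.29 and 0.25 with *Gbp2* and 0.31 and 0.26 with *Gbp7*. These cells pool clusters with unlike levels, and the part of this in the correlations was not tested.

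Members with and without promoter letters were set side by side. In DCs the 17 members with ISRE letters had a median log2 ratio of −0.85 and the 12 without them −0.81. In TAM/Mono cells these medians were −0.46 and −0.51. The 9 members with GAS letters had −0.85 in DCs and the 20 without them −0.81, and in TAM/Mono cells −0.32 and −0.47, the widest gap of the 4 comparisons.

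Of 110 other genes listed for the pathway, 98 were in the table. In DCs 31 of the 86 with enough UMIs were at least 1.5-fold lower and 0 higher (all genes 8.55% and 3.69%). In TAM/Mono cells 11 of 90 were lower and 3 higher (all genes 5.43% and 5.67%). In T cells these were 5 and 6 of 84 (all genes 7.21% and 6.06%). In NK cells these were 4 and 1 of 51 (all genes 5.55% and 6.14%). In pDCs these were 2 and 3 of 39 (all genes 5.91% and 4.97%). The counts in T cells were near the shares of all genes.

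Of the ligands, only *Ifng*, the gene of interferon gamma, was abundant among the 5 in the table. *Ifng* had 199 and 139 CPM in T cells (−0.51, −0.62 to −0.41) and 74.5 and 94.2 CPM in NK cells (0.34, −0.083 to 0.77). Most T cell UMIs of *Ifng* were in clusters whose share of the T cells differed between the libraries, and *Ifng* is among the leading genes of one of them. In the cluster led by *Cxcr6* and *Cd8a* (387 and 238 cells) it had 255 and 271 CPM (0.088, −0.056 to 0.23), in the cycling T cells (241 and 89 cells) 208 and 188 CPM (−0.14, −0.32 to 0.032), in the cluster led by *Foxp3* and *Cd4* (158 and 181 cells) a log2 ratio of 0.092 (−0.53 to 0.71) and in the cluster led by *Dapl1* and *Lef1* (173 and 428 cells) 27.1 and 15.2 CPM (−0.84, −1.62 to −0.042). In the 2 clusters with the most *Ifng* UMIs both intervals hold 0, unlike that of the pooled T cells. *Ifnb1*, the gene of interferon beta, had 8 UMIs in 2 TAM/Mono cells labelled WT and 30 UMIs in 7 labelled KO, too few cells for a level of the class. *Ifnk*, of interferon kappa, had 21 UMIs in 21 cells labelled WT and 0 UMIs labelled KO, at least 5.76-fold lower when 3 UMIs over the library are taken as the floor. *Ifna2* had 2 and 0 UMIs, and *Ifnl2* 1 and 1.

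In DCs 0 of 5 receptor genes were lower by 1.5-fold and 0 higher. All 5 ratios were above 0, where 61.6% of all genes were below 0, but the intervals of *Ifnar1*, *Ifnar2* and *Il10rb* hold 0. Ratios below 0 were found for 3 of 5 in TAM/Mono cells (all genes 40.6%), 4 of 5 in pDCs (51.6%), 0 of 5 in T cells (57.6%) and 0 of 4 with enough UMIs in NK cells (48.2%). *Ifngr1*, the ligand-binding chain for interferon gamma, had 149 and 249 CPM in TAM/Mono cells (0.74, 0.65 to 0.83), 245 and 363 CPM in T cells (0.57), 687 and 923 CPM in NK cells (0.43) and 222 and 273 CPM in DCs (0.29, 0.15 to 0.44). The T cell values pool clusters whose shares differed between the libraries. Summed over the receptor genes, the log2 ratio was 0.51 in pooled T cells. It was 0.37 (0.24 to 0.49) in the cluster led by *Cxcr6* and 0.34 (0.21 to 0.48) in that led by *Foxp3*. It was −0.0067 (−0.15 to 0.14) in the cluster led by *Dapl1* and −0.051 (−0.20 to 0.093) in the cycling T cells. *Ifngr2*, the partner chain of *Ifngr1*, was at 0.12 (0.0060 to 0.23) in TAM/Mono cells and 0.36 (0.11 to 0.63) in DCs. *Ifnar1*, a chain of the type I receptor, had 59.5 and 46.4 CPM in TAM/Mono cells (−0.36, −0.54 to −0.18), 44.8 and 45.2 CPM in DCs (0.0083, −0.33 to 0.35) and 156 and 101 CPM in pDCs (−0.63, −1.20 to −0.061). *Ifnar2*, the other chain, was at −0.11 in TAM/Mono cells and 0.071 (−0.16 to 0.31) in DCs, and *Il10rb*, shared by the receptors of interleukin 10 and the lambda interferons, at −0.20 and 0.042 (−0.27 to 0.36).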

How the data were processed

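Live CD45.2+ cells of B16-OVA tumors were profiled with the Chromium 3′ kit. Cell Ranger and mm10 are named in the submitters' processing notes. The authors joined both libraries, filtered cells (300 UMIs, 100 genes, 5% mitochondrial UMIs) and normalised in Seurat. The deposited values are natural log values of 1 plus UMIs scaled to 10000 per cell. When the log was undone and each cell divided by the step of 1 UMI, 100% of nonzero values were whole within 0.01, as the design foresaw. The stated filter removed 0 further cells. Cells were placed in libraries by the barcode suffix in the labels.

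Cells were clustered in Seurat 5.3.0 (R 4.3.3) on 599 variable genes, from which 32 interferon genes (16 of them members) were dropped, with 13 PCs at resolution 0.8. Clusters took their class from fixed markers seen in 10% of cells or more. Those with fewer than 3 such markers, or with more markers of another class among 10 leading genes, stayed unnamed. No doublets were removed. Leaving out doublet-like cells (3 or more UMIs of 3 T cell receptor complex genes and 5 or more of 8 myeloid genes) was an alternative. Python 3.11.15 with numpy 2.4.6 and scipy 1.17.1 gave levels (CPM) with exact Poisson intervals, log2 ratios with 0.5 UMIs added and exact binomial intervals, and shares of cells with Clopper-Pearson intervals, at 95%. PCR and capture error are not covered. Ratios were counted from 50 UMIs and 1.5-fold. They were checked on simulated counts that varied by counting error only. That check leaves out variation between cells, which was large for some members. In thinned TAM/Mono cells labelled WT, the variance of *Rsad2* UMIs was 18.5 times their mean. Thinning drew cells of a class down to its 10th percentile of UMIs, rounded down to a multiple of 100. Cells are not replicates, so the rank-sum test over cells used in the study was not run, and no p-value is given.

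The members and lists were chosen with earlier results of these data known. The text names members past 1.5-fold in 1 direction in at least 2 of the classes T cell, TAM/Mono, NK cell and DC, the 5 with the largest ratio in each direction per class, the 5 with the most UMIs, those at least 5-fold over the next class in both libraries, and the pathway's ligands and receptors. A further gene of this rule is not reported here. No other pathway gene was past the fold in 1 direction in 3 of those 4 classes. Other members named were chosen after their values were seen.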

Additional observations from a re-analysis of the deposited data

Results flagged for a closer look

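For 8 members the counting interval of the ratio lay above 0 in one class and below 0 in another. These intervals leave out variation between cells, so they do not settle that the directions were opposite. With 1 library per genotype the difference between classes was not tested. In T cells and DCs, in that order, the log2 ratio was 0.26 and −1.60 for *Ifit3*, 0.49 and −0.33 for *Irf1*, 0.25 and −0.85 for *Igtp*, 0.28 and −0.87 for *Irgm1* and 0.25 and −0.76 for *Samhd1*. *Slfn5* was at 0.91 in T cells and −0.46 in TAM/Mono cells, *Xaf1* at 0.14 in TAM/Mono cells and −0.26 in DCs, and *Ifitm3* at 0.031 in TAM/Mono cells and −0.34 in T cells. The TAM/Mono value of *Ifitm3* lay below the median of all genes in that class (0.062). The T cell values pool clusters whose shares differed between the libraries. *Ifit3*, for example, was at −0.19, −0.15, −0.25 and −1.04 in the 4 T cell clusters led by *Cxcr6*, by *Dapl1*, by *Foxp3* and by cycling genes.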

How the results depend on the processing

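Of 331 values of sums, medians, counts, shares and orders recomputed under the alternatives, 248 stayed within the spread set for them, 82 moved and 1 reversed, and of 547 values of single members 488 stayed, 59 moved and 0 reversed. The cause of the shifts was not tested. The summed log2 ratio in TAM/Mono cells (−0.25) was −0.31 with median-of-ratios scaling, −0.20 with totals without mitochondrial, ribosomal and member genes, −0.23 in thinned cells, −0.42 without cells with *S100a8* or *S100a9* and −0.43 without the 3 members with the most UMIs. In DCs (−0.59) it was, for the same settings, −0.50, −0.54, −0.62, −0.93 and −0.87, and −0.67 with the interferon genes kept in the clustering, −0.66 and −0.72 at resolution 0.4 and 1.2, −0.69 with 20 PCs, −0.67 without doublet-like cells, −0.62 with cells weighted alike, −0.63 with 1 mix of clusters and −0.66 without the cycling DC cluster, which was added after the data were seen, as was counting the unnamed cluster as T cells. In T cells (−0.018) it was 0.038, 0.063, −0.13, −0.26 and 0.017 for the first 5 settings, −0.087 with the interferon genes kept, −0.084 without doublet-like cells and −0.29 with 1 mix of clusters, and in NK cells −0.33 when thinned. The member median in DCs (−0.78) was −0.98 at resolution 1.2, −0.98 without doublet-like cells and −1.15 without *S100a8* or *S100a9* cells, and in T cells (−0.031) 0.050 with the other totals, −0.14 thinned, −0.30 with 1 mix and −0.30 without those cells. With 1 mix of clusters, the regulators in T cells reversed from 0.21 to −0.16, and there the sensors were at −0.21, IFIT genes −0.40, other effectors −0.31, ISG15 system −0.29, GTPases −0.30 and others −0.34, while in TAM/Mono cells the regulators were at −0.39, sensors −0.31, IFIT genes −0.98, other effectors −0.10 and ISG15 system −0.71, and in DCs the other effectors at −0.41. With the interferon genes kept, T cell sensors were at −0.16 and GTPases at −0.12, and DC effectors at −0.43 and the ISG15 system at −1.33. At 2-fold, 5 members were lower in TAM/Mono cells, 11 in DCs, 1 in T cells, 0 in NK cells and 0 in pDCs, and 0 higher in T cells. Of all genes, 1.96%, 2.08%, 1.96%, 1.74% and 1.7% were lower by 2-fold in these classes, in that order, and 1.6% higher in T cells. Ratios of called members came within 1.5-fold under at least 1 alternative for 5 of 14 members in TAM/Mono cells, 3 of 26 in DCs, 3 of 4 in T cells, 2 of 2 in NK cells and 0 of 1 in pDCs. Calls were also gained. Without *S100a8* or *S100a9* cells the 14 lower in TAM/Mono cells became 21 and the 26 in DCs became 33. The share of all genes past the fold in that setting is not given. The 1 member higher in T cells became 0 when thinned, with 1 mix, without *S100a8* or *S100a9* cells and at 200 UMIs, and the 3 lower became 6 with 1 mix and 1 at 200 UMIs, and without doublet-like cells 1 of the 3 was kept and *Gbp3* and *Ifih1* were added. In NK cells the 2 lower became 1 without doublet-like cells (*Usp18*) and when thinned (*Irf7*), 1 other member (*Igtp*) without *S100a8* or *S100a9* cells, 8 (and 1 higher) at 20 UMIs and 0 at 200 UMIs. In pDCs 1 lower and 0 higher became 2 and 1 without *S100a8* or *S100a9* cells, 3 and 2 at 20 UMIs, and 0 lower at 200 UMIs. Thinned, the *Isg15* shares were 73.6% and 57.6% in TAM/Mono cells, 76.3% and 53.0% in DCs, 20.3% and 16.8% in T cells and, labelled WT, 17.9% in NK cells. Of 5 classes, 3 kept their rank labelled WT with cells weighted alike, and 3 labelled KO without the 3 members with the most UMIs. No paired analysis was possible because each genotype has 1 library, and for the same reason no replicate could be left out.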

Other observations

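Genes on no interferon list were also set side by side by their promoter letters. In DCs 8.68% of the 219 such genes with ISRE letters were at least 1.5-fold lower in the library labelled KO (median log2 ratio −0.10), and 7.58% of the 5722 without them (median −0.086). In TAM/Mono cells the shares were 6.87% of 262 and 4.87% of 7063 genes. In T cells they were 6.64% of 256 and 6.90% of 7059. The shares at least 1.5-fold higher, with and without the letters, were 5.02% and 3.495% in DCs, 5.34% and 5.31% in TAM/Mono cells and 7.03% and 5.44% in T cells.

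*Ifit3b*, a near-identical relative of *Ifit3* named after its values were seen, had 31.3 and 14.2 CPM in TAM/Mono cells (−1.14, −1.44 to −0.85) and 34.7 and 16.0 CPM in DCs (−1.11, −1.58 to −0.65). In T cells it was past the fold in the other direction on 62 and 55 UMIs (4.98 and 7.56 CPM, 0.60, 0.052 to 1.15).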
